A study of Rattus norvegicus with 20 samples.

Results

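The collagen genes were taken as the protein-coding rows of the count table whose symbol reads Col, a number, a and a number, which gave 42 of the 32495 gene rows. By the type of assembly their protein forms, 10 were fibrillar, 6 were of the basement membrane, 9 were fibril-associated (FACIT, fibril-associated collagens with interrupted triple helices) and 17 were of other types. The chains Col1a2, Col6a3 and Col21a1 were not analysed here. The data are RNA-seq counts from the gastrocnemius, a calf muscle, of female Fischer 344 rats aged 11 to 12, in a unit that the methods do not name. Every rat carried a Ward colorectal carcinoma, a transplanted rat tumour, and no group without tumour was measured. The tumours were left to grow for 2 weeks before the first day of chemotherapy. TUMOUR STD (5 libraries) received no chemotherapy and ate the standard semipurified diet. CHEMO STD (7 libraries) ate the same diet and received 2 cycles of CPT-11 (irinotecan, a topoisomerase inhibitor) followed a day later by 5-FU (5-fluorouracil, an antimetabolite) at 50 mg/kg. CHEMO FO (8 libraries) received the same 2 cycles and was switched, when chemotherapy began, to a fish oil diet, which held more of the fatty acids EPA and DHA than the standard one. In the chemotherapy groups muscle was taken 7 days after the second cycle. The methods name no separate day for TUMOUR STD. The comparison of CHEMO STD with TUMOUR STD addresses chemotherapy and that of CHEMO FO with CHEMO STD addresses the diet, whereas in CHEMO FO versus TUMOUR STD chemotherapy and diet cannot be told apart.

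Collagens are triple helices of alpha chains and make up most of the connective tissue that sheathes a muscle, its fascicles and its fibres and passes its force to the tendon. Fibrillar chains are secreted as procollagen, trimmed at their ends, aligned into fibrils and crosslinked by lysyl oxidases, with types I and III as the bulk and types V and XI inside the fibrils, where they limit fibril width. FACIT collagens sit on the surface of fibrils, type IV forms the sheet-like network of the basement membrane around each fibre, capillary and nerve, and type VI forms beaded filaments between the basement membrane and the fibrils. In skeletal muscle most fibrillar collagen RNA is made by fibroblasts and, near the junction with the tendon, by tendon cells.

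Basement membrane chains lie in head-to-head pairs of genes, so 2 chains that assemble together are transcribed from a short common stretch. In the rat RefSeq annotation (GRCr8), Col4a1 on the plus strand and Col4a2 on the minus strand start with 76 bases between them on chromosome 16, and the sequence between the starts is shown because both chains are followed below as a pair. Between the starts of Col4a3 and Col4a4 on chromosome 9 lie 412 bases, of which the stretch that both promoter windows hold is shown. Below them stand the 250 bases before the start of Col11a1 and of Col13a1. The fall of Col11a1 in CHEMO FO against TUMOUR STD was called whichever single sample was left out, and Col13a1 was called lower in both chemotherapy groups. These genes and the motifs were chosen after the values were seen. All 4 are given 5′ to 3′, the paired stretches on the plus strand and each single gene on its own strand (Col11a1 plus, Col13a1 minus). Capitals mark matches to 3 motifs on either strand, the CCAAT box (CCAAT), the GC box (GGGCGG) and the TATA box (TATAAA), which share no letters in these stretches.
Col4a1 and Col4a2, chr16:84885521-84885596: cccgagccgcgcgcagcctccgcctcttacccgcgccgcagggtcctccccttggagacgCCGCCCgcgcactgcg
Col4a3 and Col4a4, chr9:91323740-91323827: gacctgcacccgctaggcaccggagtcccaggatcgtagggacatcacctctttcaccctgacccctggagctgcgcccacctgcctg
Col11a1, chr2:204508886-204509135: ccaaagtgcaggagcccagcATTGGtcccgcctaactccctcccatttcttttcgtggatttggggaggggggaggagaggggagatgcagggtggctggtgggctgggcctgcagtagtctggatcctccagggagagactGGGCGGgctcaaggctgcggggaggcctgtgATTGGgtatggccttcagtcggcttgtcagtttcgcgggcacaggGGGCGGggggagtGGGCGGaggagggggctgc
Col13a1, chr20:30466801-30467050: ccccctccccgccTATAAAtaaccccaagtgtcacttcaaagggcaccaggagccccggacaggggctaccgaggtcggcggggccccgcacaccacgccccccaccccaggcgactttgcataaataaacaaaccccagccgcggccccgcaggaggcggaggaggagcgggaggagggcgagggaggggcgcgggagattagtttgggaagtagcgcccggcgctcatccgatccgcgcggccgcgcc
The Col4a1 and Col4a2 stretch was 78.9% G and C and held 1 GC box, a motif found in 19.3% of equally long stretches before the starts of all 27457 genes with a window. The Col11a1 window held 3 GC boxes and 2 CCAAT boxes. The Col13a1 window held 1 match to the TATA box letters, near its 5′ end and thus far from the start of the gene. Over the 33 collagen genes with a window, 19 (57.6%) had a GC box in the 250 bases before their start, beside 32.4% of all genes. A CCAAT box was found in 10 (30.3%, beside 34.3%) and a TATA box in 3 (9.09%, beside 13.1%). Windows of Col1a1, Col2a1, Col3a1, Col12a1 and Col22a1 were not used here.

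The libraries held 3020821 to 10857477 counts on named genes (median 5696632), and collagen genes took 0.194% to 1.4% of them. CHEMO STD replicates 1 and 2 differed by more than counting noise but by far less than other pairs (chi-square per gene 2.23, against 13.7 to 255 in 58 other pairs within a group). Their library names end in MB and MBd, and those of all other libraries in VM. Replicates 1 and 2 were summed to 1 sample, which leaves 6 samples in CHEMO STD and 19 in all. The labels name no animal, so the p-values measure the spread between these samples. Values are CPM, counts scaled to library size, here with TMM factors. A gene was called at the thresholds of the study's methods, that is, a two-sided unadjusted p below 0.05, here from edgeR's quasi-likelihood test, with 1.5-fold or more between groups. The defining genes of skeletal muscle were abundant in every sample (sum of 7 fibre markers 127266 to 257455 CPM). Before the comparisons, 3 samples need naming. TUMOUR STD replicate 10 and CHEMO FO replicate 16 held keratinocyte transcripts (sum of 11 markers 589.8 and 121 CPM, against 2.45 to 8.07 in the other 17), and CHEMO FO replicate 18 had the highest sum of 8 macrophage markers (736 CPM, against 176 to 434) and the lowest fibre marker sum. Counts without them are given beside each comparison.

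Of the 42 collagen genes, 32 passed edgeR's filter on low counts and were tested among 11716 genes. These were all 10 fibrillar genes, 5 of 6 basement membrane genes, 6 of 9 FACIT genes and 11 of 17 others. Col1a1, the major chain of type I collagen, took 12.5% to 70.2% of all collagen counts, a share that also depends on transcript length. The summed level of the fibrillar genes was 7494 ± 4753 CPM (SD, n = 5) in TUMOUR STD, 4413 ± 3339.8 (n = 6) in CHEMO STD and 3512 ± 2054 (n = 8) in CHEMO FO. The basement membrane sum was 533 ± 176, 411 ± 73.1 and 440.3 ± 75.5 CPM in the same order. The FACIT sum was 408 ± 150.0, 269 ± 92.0 and 254 ± 78.4 CPM, and the sum of the other types was 658 ± 264, 471 ± 141 and 464 ± 136 CPM. In each of the 4 classes the mean was highest in TUMOUR STD, and in each the groups overlapped. In bulk tissue fewer collagen-making cells and less collagen RNA per cell cannot be told apart.

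**Figure D1:**
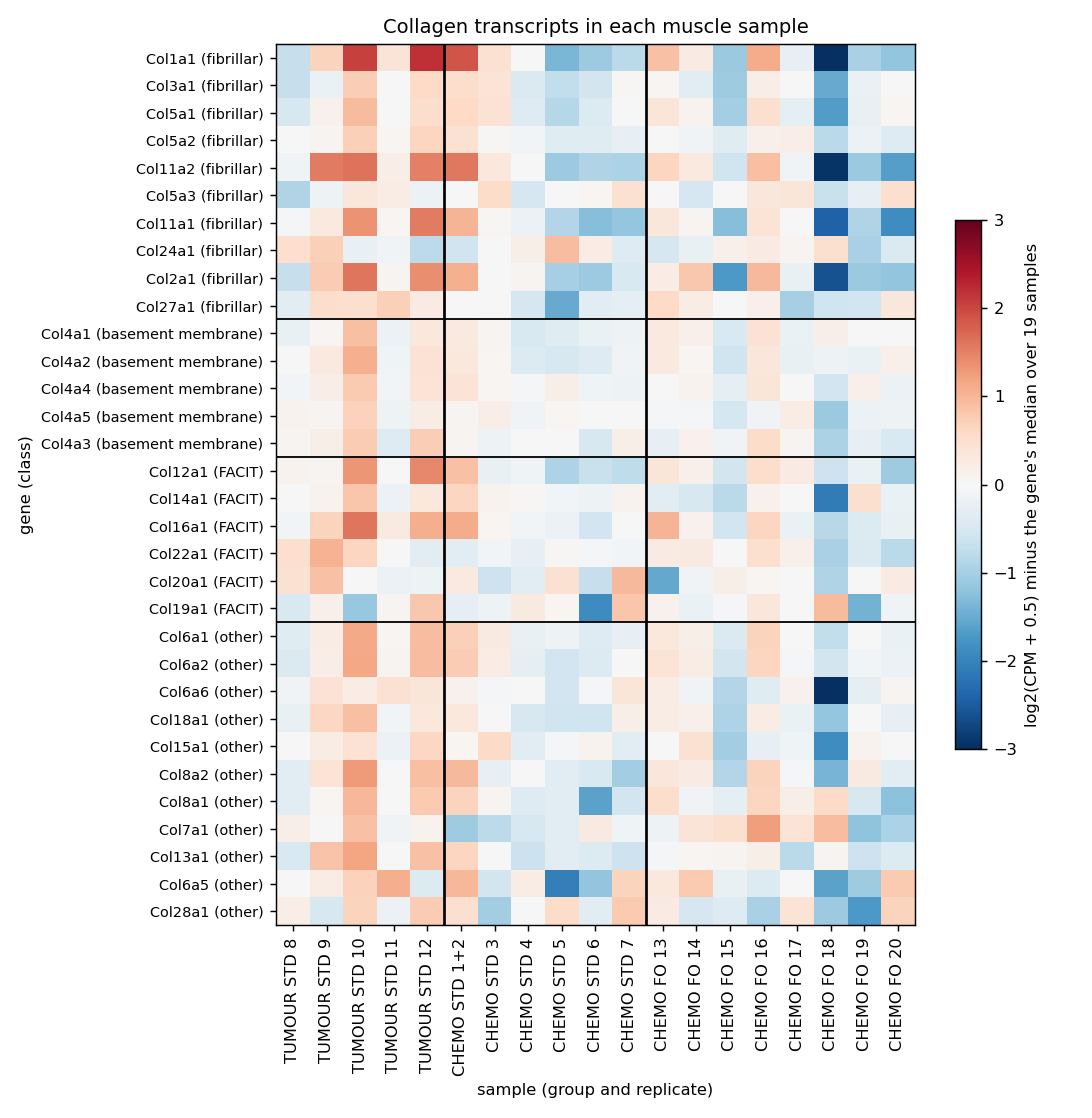
Level of the 32 tested collagen genes (rows, grouped by class) in 19 muscle samples (columns, grouped by condition), as log2(CPM + 0.5) minus the median of the gene over the samples; red is above and blue below that median, with colours cut off at 3 either way. TUMOUR STD 10, TUMOUR STD 12 and CHEMO STD 1+2 are above the median in 29, 27 and 26 rows and CHEMO FO 18 is below it in 26, with the widest range in Col1a1, Col2a1, Col11a1 and Col11a2.

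The 3 tested collagen genes with the widest spread between samples of the same group were fibrillar. Col1a1 ranged from 201 CPM in CHEMO FO replicate 18 to 10406 in TUMOUR STD replicate 12, and its within-group SD on the log2 scale was 1.33. Next came Col2a1 (1.16), the chain of cartilage type II collagen, and Col11a2 (1.12), a chain of the type XI core of fibrils. The basement membrane genes were the steadiest class, from 0.29 for Col4a4 to 0.41 for Col4a3. TUMOUR STD replicates 10 and 12 and CHEMO STD 1+2 were the 3 highest samples in 6 of 10 fibrillar, 2 of 6 FACIT, 1 of 5 basement membrane and 4 of 11 other genes. Col1a1 stood at 10406 and 9470.3 CPM in TUMOUR STD replicates 12 and 10 and at 8427 in the summed CHEMO STD sample, with no other sample above 4991. These 3 samples also had the highest sums of 13 tendon markers (2398, 2038 and 1741 CPM, against 360.0 to 1361 in the other 16) and of 11 fibroblast markers (4879, 4039 and 3957 CPM, against 1856 to 3283). The part of tendon or fascia in the sampled piece was not tested.

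In CHEMO STD versus TUMOUR STD, 4 of the 32 tested collagen genes were called lower and 0 higher. They were Col12a1, Col13a1, Col22a1 and Col27a1. Of all genes tested, 1.45% were called lower and 0.93% higher. The fitted change was negative in 30 of the 32 and its median was -0.43 on the log2 scale, beside -0.0016 over all genes. After Benjamini-Hochberg adjustment 0 collagen genes were past 0.05 in edgeR (smallest adjusted p 0.719), while 6 had an unadjusted p below 0.05. DESeq2 on all samples gave 0 past the adjusted threshold and 6 at the unadjusted one.

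Col12a1 encodes the chain of FACIT collagen XII, which lies on fibrils of tendon and muscle sheaths. It stood at 134, 131, 311, 124 and 338 CPM in TUMOUR STD replicates 8 to 12, and CHEMO STD ran from 64.9 to 227 (median 91.5). The 2 highest TUMOUR STD samples and the summed CHEMO STD sample lay far above the rest of their groups, and the groups overlapped. The fall was -0.90 (SE 0.34) on the log2 scale with p = 0.0137 and adjusted p = 0.719 in edgeR's quasi-likelihood test, while permuting the group labels of its log2 CPM values gave an exact two-sided p of 0.0606. Without TUMOUR STD replicate 10 or 12 it was not called.
Col22a1 encodes a FACIT collagen known from the myotendinous junction. TUMOUR STD samples held 42.9, 62.4, 47.0, 29.9 and 24.1 CPM and CHEMO STD 23.5 to 30.8 (median 28.1). TUMOUR STD replicates 8, 9 and 10 lay above every CHEMO STD sample, while replicates 11 and 12 lay among them. The change was -0.60 (SE 0.24), and the call was lost on leaving out TUMOUR STD replicate 8, 9 or 10, the summed CHEMO STD sample or CHEMO STD replicate 4.
Col13a1 encodes a transmembrane collagen of the neuromuscular junction. It was low throughout, with 1.39, 4.18, 5.44, 2.10 and 4.26 CPM in TUMOUR STD and 1.16 to 3.58 (median 1.52) in CHEMO STD. The 2 lowest TUMOUR STD samples lay inside the CHEMO STD range. The change was -0.85 (SE 0.36), from -1.26 to -0.62 on leaving out single samples, and 6 of these 19 fits did not call it.
Col27a1, a fibrillar chain known from cartilage, was also low (2.08, 4.18, 4.08, 4.85 and 3.37 CPM in TUMOUR STD, 0.636 to 2.75 (median 2.12) in CHEMO STD). It had a fitted change of -0.84 (SE 0.34) and, of the 4 called genes, the smallest exact permutation p (0.026, two-sided), against 0.0541 for Col22a1 and 0.0714 for Col13a1, and it lost its call in 1 of 19 fits, without TUMOUR STD replicate 11. It was also the 1 gene of the 4 called with TUMOUR STD replicate 10 and CHEMO FO replicate 16 left out together, where 1 of 32 was called in all, beside 1.44% of all genes.

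Among the fibrillar genes 9 of 10 fitted changes were negative (median -0.62). The 2 type XI chains had fitted changes of -0.95 (SE 0.47) for Col11a1 and -0.96 (SE 0.54) for Col11a2, and neither was called (edgeR adjusted p = 0.719 and adjusted p = 0.719). Col1a1 had the largest fitted change of the class, -0.96 (SE 0.65), not called (edgeR adjusted p = 0.728). TUMOUR STD held 1412, 3639, 9470.3, 3005 and 10406 CPM of it and CHEMO STD 883 to 8427 (median 1805), so 1 CHEMO STD sample lay above 3 of the 5 TUMOUR STD samples. Col3a1, the type III chain of fine fibrils, had a fitted change of -0.23 (SE 0.30), Col5a1 of -0.33 (SE 0.32) and Col5a2 of -0.40 (SE 0.19), the last past the unadjusted threshold but under 1.5-fold. Col5a3, the third type V chain, was the 1 fibrillar gene with a positive value, 0.19 (SE 0.23). All 5 tested basement membrane genes had negative values (median -0.35) and 0 were called. The largest was that of Col4a2, -0.53 (SE 0.20) past the unadjusted threshold but just under 1.5-fold, with 112, 137, 232, 102 and 151 CPM in TUMOUR STD and 79.8 to 139.7 (median 94.9) in CHEMO STD. Its partner Col4a1 had a fitted change of -0.35 (SE 0.19) and Col4a4, a chain of the second type IV network, of -0.22 (SE 0.17). Of the FACIT genes outside the 2 called, Col16a1 had a fitted change of -0.66 (SE 0.34) and Col14a1 of -0.13 (SE 0.28). All 11 tested genes of other types had negative values (median -0.47), among them the type VI chains Col6a1 (-0.45, SE 0.26), Col6a2 (-0.47, SE 0.27) and Col6a6 (-0.29, SE 0.33). The 11 ran from -0.85 to -0.05, and Col15a1, which links basement membranes to the fibrils beside them, stood at -0.22 (SE 0.28).

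The number of calls in this comparison turned on single samples. It was 1 without TUMOUR STD replicate 10, 2 if TUMOUR STD replicate 12 was dropped and also 2 if it was replicate 4 of CHEMO STD, 7 without TUMOUR STD replicate 11, 10 without TUMOUR STD replicate 8 and 14 without the summed CHEMO STD sample. The share of all genes called in either direction shifted too, from 2.38% with all samples. In the same order of samples left out it was 1.37%, 1.95%, 1.79%, 3.83%, 4.48% and 5.20%. With both the keratinocyte-bearing samples and CHEMO FO replicate 18 left out, 2 genes were called, beside 1.77% of all genes, and the median over the 32 genes was -0.27. The values were negative in 28 to 31 collagen genes across the 19 fits that left out 1 sample, each with 31 or 32 of them. Marker sums of other cells did not all go one way. In both chemotherapy groups the tendon, fibroblast, endothelial and smooth muscle sums had lower means than in TUMOUR STD, and the macrophage and adipocyte sums had higher ones, none of them tested. The tendon sum was 1391 ± 766 CPM in TUMOUR STD, 775 ± 481 in CHEMO STD and 829.2 ± 374 in CHEMO FO, and the sum of 10 smooth muscle and pericyte markers was 474 ± 76.0, 328 ± 37.9 and 342 ± 73.8 (SD, n = 5, 6 and 8). The macrophage sum was 249.99 ± 75.3, 287 ± 81.8 and 316 ± 175 CPM, and the sum of 7 adipocyte markers was 486 ± 127, 555 ± 213 and 536 ± 190.4, in the same order. Their part in the collagen values was not tested.

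**Figure D2:**
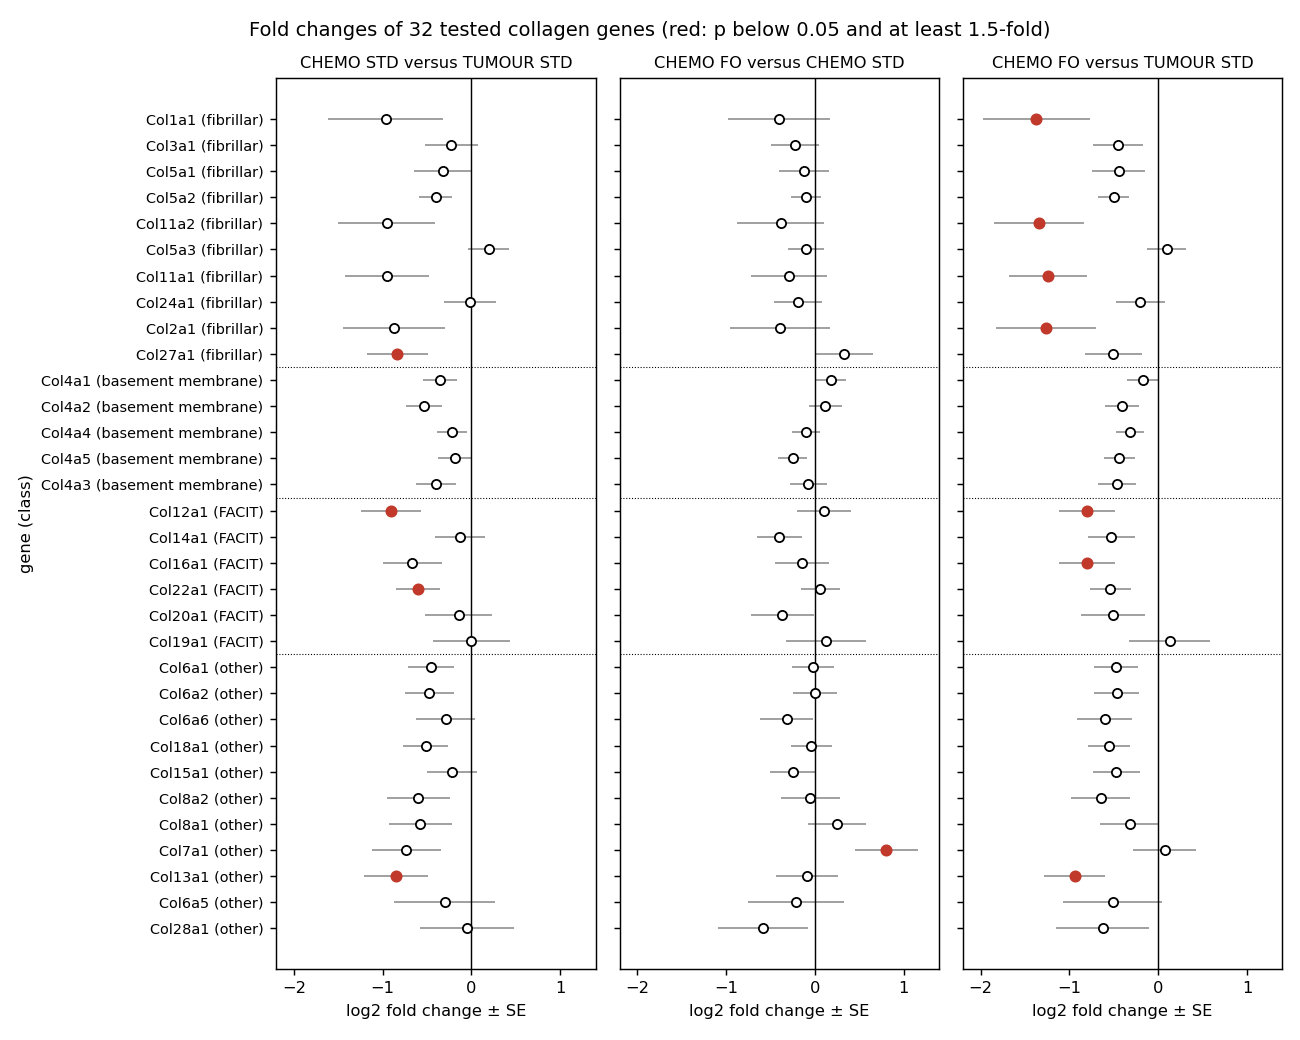
Fitted log2 fold change (points) with an SE derived from the test statistic (bars) of the 32 tested collagen genes, by class, in the 3 comparisons. Red points passed an unadjusted p below 0.05 and 1.5-fold. Points lie left of 0 for 30, 23 and 29 genes from left to right, and 4, 1 and 7 are red.

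In CHEMO FO versus TUMOUR STD, 7 of the 32 collagen genes were called lower and 0 higher, where 2.51% of all genes tested were called lower and 1.09% higher. They were the fibrillar Col1a1, Col2a1, Col11a1 and Col11a2, the FACIT Col12a1 and Col16a1, and Col13a1. The fitted change was negative in 29 of 32 with a median of -0.50, beside 0.0023 over all genes. Again 0 passed an adjusted p of 0.05 in edgeR (smallest 0.486) or in DESeq2 on all samples. At an unadjusted p below 0.05 there were 13 in edgeR, each lower, and 12 in DESeq2. This comparison shares the TUMOUR STD samples with the one above, so the 2 are not independent.

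The largest changes were those of fibrillar genes. Col1a1 held 1412, 3639, 9470.3, 3005 and 10406 CPM in TUMOUR STD and 201 to 4991 (median 1555) in CHEMO FO. The 2 highest TUMOUR STD samples lay above all 8 CHEMO FO samples and the other 3 lay among them. The change was -1.37 (SE 0.60), with adjusted p = 0.525 in edgeR's quasi-likelihood test, exact permutation gave p = 0.0808 (two-sided), and 5 of the 19 fits that left out 1 sample did not call it (TUMOUR STD replicates 10 and 12, CHEMO FO replicates 15, 19 and 20).
Col11a1 and Col11a2 encode chains of type XI collagen. Col11a1 held 46.0, 58.6, 122, 49.0 and 141 CPM in TUMOUR STD against 8.45 to 63.5 (median 36.3) in CHEMO FO, and Col11a2 held 45.2, 148, 156, 57.3 and 143 against 6.0 to 92.9 (median 39.4). For Col11a1, TUMOUR STD replicates 8, 9 and 11 lay within the CHEMO FO range and only replicates 10 and 12 lay above it. For Col11a2, TUMOUR STD replicates 8 and 11 lay within that range and replicates 9, 10 and 12 lay above it. The changes were -1.24 (SE 0.44) and -1.34 (SE 0.51), with edgeR adjusted p = 0.486 and 0.502, and exact permutation gave p = 0.0466 and 0.0404 (two-sided). Both were called in all 19 fits that left out 1 sample and with TUMOUR STD replicate 10, CHEMO FO replicate 16 and CHEMO FO replicate 18 left out together. No fit left out TUMOUR STD replicates 10 and 12 together, so whether the calls rest on that pair of samples was not tested.
Col2a1 was a minor transcript, at 2.08, 6.56, 12.2, 3.88 and 10.5 CPM in TUMOUR STD and 0.182 to 7.68 (median 2.27) in CHEMO FO. It had a fitted change of -1.27 (SE 0.56), with an exact permutation p of 0.0948 (two-sided), and lost its call in 6 of 19 fits. Cartilage markers summed to at most 10.2 CPM in any sample, in TUMOUR STD replicate 10, with Matn1 at 0 counts in all.
Col12a1 (-0.81, SE 0.32) and Col16a1 (-0.81, SE 0.32), a minor FACIT chain, fell by similar amounts. Col16a1 held 25.7, 43.6, 84.0, 32.8 and 58.4 CPM in TUMOUR STD and 15.0 to 55.3 (median 23.3) in CHEMO FO, and Col12a1 ran from 59.2 to 178 (median 123) in CHEMO FO. Col13a1 ran from 0.985 to 2.44 (median 2.12) CPM in CHEMO FO, with 3 of the 5 TUMOUR STD samples above all 8, and had a fitted change of -0.94 (SE 0.35). The two-sided exact permutation p was 0.066 for Col12a1, 0.0598 for Col16a1 and 0.0451 for Col13a1. All 3 lost their call without TUMOUR STD replicate 10, and Col12a1 also without replicate 12.

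**Figure D3:**
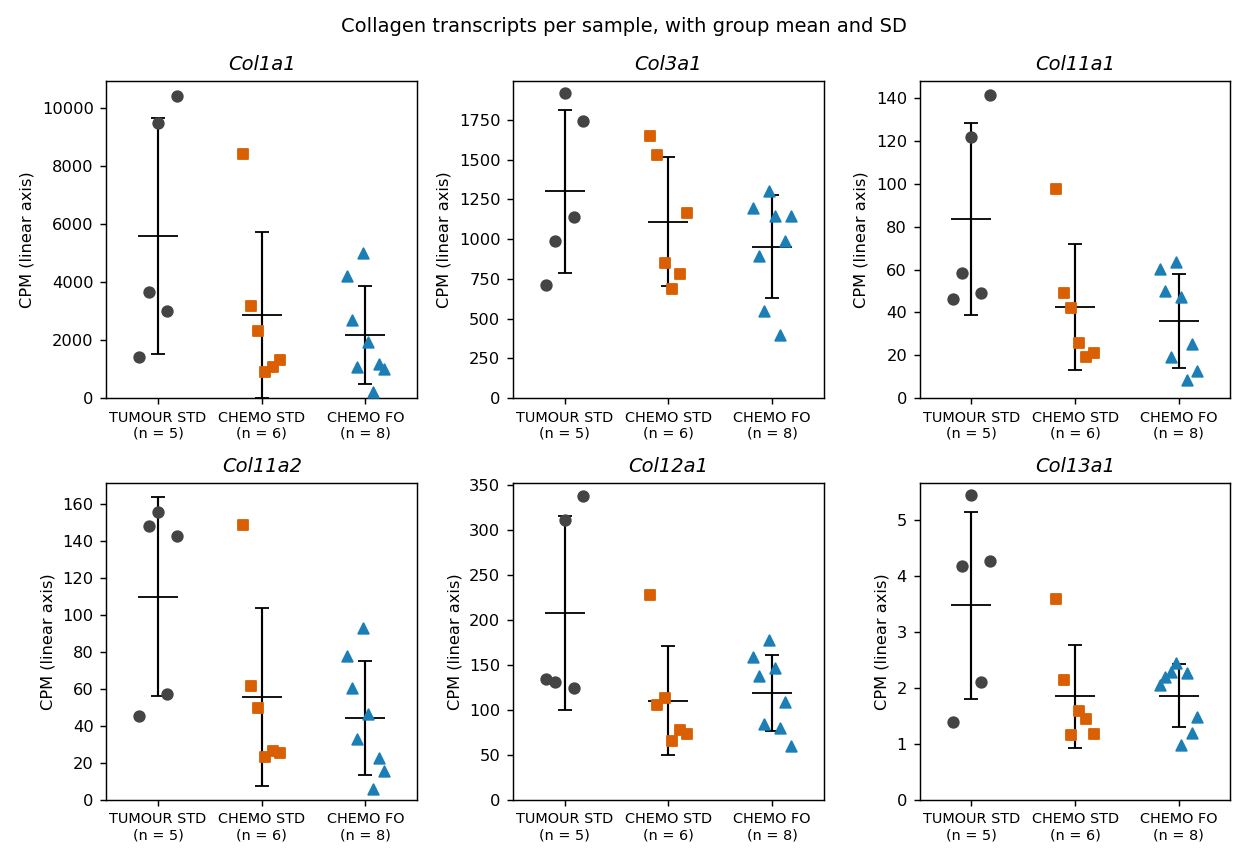
CPM of Col1a1, Col3a1, Col11a1, Col11a2, Col12a1 and Col13a1 in each sample (points, linear axes from 0), with the mean and SD of each group (horizontal mark and bars). The same 2 TUMOUR STD samples and 1 CHEMO STD sample lie at the top for Col1a1, Col11a1 and Col12a1, and the groups overlap in every panel.

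The 5 tested basement membrane genes were again all negative (median -0.41) with 0 called, although 3 had p below 0.05 at under 1.5-fold. These were Col4a5 (-0.44, SE 0.17), Col4a3 (-0.47, SE 0.21) and Col4a2 (-0.41, SE 0.19), while Col4a1 had a fitted change of -0.17 (SE 0.18). The smallest p of all collagen genes here was that of Col5a2 (0.00878; adjusted p = 0.486 by edgeR), at -0.50 (SE 0.18), a change whose two-sided exact permutation p was 0.0249. Of the fibrillar genes not called, Col3a1 had a fitted change of -0.45 (SE 0.28), Col5a1 of -0.45 (SE 0.30) and Col27a1 of -0.50 (SE 0.32), and Col5a3 alone was positive (0.09, SE 0.22). The type VI chains had fitted changes of -0.48 (SE 0.24) (Col6a1), -0.47 (SE 0.26) (Col6a2) and -0.60 (SE 0.31) (Col6a6), without a call. Of the 11 genes of other types the values ran from -0.94 to 0.07, with Col18a1, a proteoglycan of vessel basement membranes, at -0.56 (SE 0.24) and Col15a1 at -0.47 (SE 0.27). The FACIT genes ran from -0.81 to 0.13, with Col14a1 at -0.53 (SE 0.27) and Col22a1 at -0.54 (SE 0.23), neither called. Without TUMOUR STD replicate 10 the number called was 2, and without TUMOUR STD replicate 8, TUMOUR STD replicate 11 or CHEMO FO replicate 16 it was 12. Of all genes 2.44%, 4.77%, 4.96% and 4.84% were called in either direction in these fits, beside 3.60% with all samples. With TUMOUR STD replicate 10 and CHEMO FO replicate 16 left out together, 4 were called, beside 3.16% of all genes. With CHEMO FO replicate 18 left out too, 4 were called, beside 2.02% of all genes. The median over the 32 genes was then -0.34, and 31 of the 32 values were negative.

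In CHEMO FO versus CHEMO STD, 1 of the 32 collagen genes was called, Col7a1, which was higher with fish oil. Of all genes tested 0.615% were called higher and 1.05% lower. The median change was -0.10, beside -0.0060 over all genes, and 23 of 32 values were negative. At an adjusted p of 0.05 there were 0 in edgeR (smallest 0.974) and 0 in DESeq2 on all samples, and 1 had an unadjusted p below 0.05 in each tool. Col7a1, the chain of the anchoring fibrils that fix epidermis to dermis, held 1.92 to 5.59 (median 3.33) CPM in CHEMO STD and 1.68 to 11.5 (median 6.18) in CHEMO FO. Both the lowest and the highest sample of the 2 groups were CHEMO FO samples. The change was 0.81 (SE 0.36, edgeR adjusted p = 0.974), exact permutation gave p = 0.174 (two-sided), and the call was lost without the summed CHEMO STD sample, CHEMO STD replicate 3 or 4, or CHEMO FO replicate 16 or 18. Next by p were Col14a1, a FACIT chain (-0.40, SE 0.25), and Col4a5 (-0.25, SE 0.17), and neither was called. Col1a1 had a fitted change of -0.41 (SE 0.57), with a value of 0.30 once the summed CHEMO STD sample was left out. Without that sample the median over the 32 genes was 0.11 and 11 of 32 values were negative, and with limma voom and quality weights the median was 0.03 with 14 negative. With TUMOUR STD replicate 10 and CHEMO FO replicate 16 left out, 0 of 32 were called, and 0 with CHEMO FO replicate 18 left out too.

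Within groups, the levels of many collagen genes followed each other across the 19 samples, in chains of the same molecule and of different ones. Each of 11 relations was computed on log2 CPM after subtraction of the group mean, with two-sided p from 100000 permutations within groups and Benjamini-Hochberg adjustment over the 11. Col6a1 and Col6a2, neighbours on chromosome 20 whose chains join in type VI collagen, gave Pearson's r 0.96 and Spearman's rho 0.90 (permutation p = 1e-05 and 2e-05, adjusted 3.67e-05 and 7.33e-05). Col4a1 and Col4a2, which share the stretch printed above, gave Pearson's r 0.95 and Spearman's rho 0.92 (permutation p = 1e-05 and 1e-05, adjusted 3.67e-05 and 7.33e-05), with r 0.91 after the 2 samples farthest from the median of Col4a1 were left out. Here 1e-05 is the smallest p the permutations can give. Col5a1 and Col5a2 gave r 0.82 (adjusted permutation p = 0.000275) and Col1a1 and Col3a1 gave r 0.86 (adjusted permutation p = 0.000138). The rho of these pairs was 0.80 (permutation p = 0.00023) and 0.82 (permutation p = 9e-05), and r without the 2 farthest samples was 0.76 and 0.78. Col1a1 with Col4a1, of the basement membrane, gave Pearson's r 0.58 and Spearman's rho 0.63 (permutation p = 0.0116 and 0.00739, adjusted 0.0159 and 0.0102), and r was 0.74 without CHEMO STD 1+2 and CHEMO FO replicate 18. Over all pairs of tested collagen genes, described here without a test, r between chains of different molecules could be as high. The gene closest to Col5a1 was Col3a1 (r 0.95) and the one closest to Col5a2 was Col11a1 (r 0.94), both above the value of Col5a1 with Col5a2. The r of Col1a1 was 0.92 with Col6a1, 0.90 with Col6a2 and 0.89 with Col16a1, all of other classes. All pairs share the same 19 samples and their depth.

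Col12a1 followed the tendon markers closely, but not it alone. Described without a test, the within-group r of the tendon marker sum was 0.92 with Col11a1, 0.89 with Col6a1 and 0.86 with Col1a1. The lowest among the tested collagen genes was -0.42, with Col24a1. Col12a1 also gave r 0.90 with the fibroblast marker sum. With the tendon marker sum it gave Pearson's r 0.96 and Spearman's rho 0.90 (permutation p = 1e-05 and 3e-05, adjusted 3.67e-05 and 8.25e-05), and r was 0.95 without TUMOUR STD replicate 12 and CHEMO STD 1+2. With Col1a1 it gave Pearson's r 0.85 and Spearman's rho 0.85 (permutation p = 9e-05 and 2e-05, adjusted 0.000198 and 7.33e-05) and r 0.89 without the 2 farthest samples. With Col22a1, the other FACIT gene linked to the myotendinous junction, it gave Pearson's r 0.17 and Spearman's rho 0.19 (permutation p = 0.498 and 0.464, adjusted 0.498 and 0.464), and r was 0.52 without TUMOUR STD replicate 12 and CHEMO STD 1+2. The group values of this last relation pointed opposite ways, with r -0.92 over 6 CHEMO STD samples and 0.85 over 8 CHEMO FO samples, a difference that was not tested. Col4a1 did not pass the test with the sum of 9 endothelial markers, whose basement membranes also hold type IV collagen (Pearson's r 0.31 and Spearman's rho 0.23 (permutation p = 0.264 and 0.389, adjusted 0.29 and 0.428); r -0.06 without the 2 farthest samples).

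**Figure D4:**
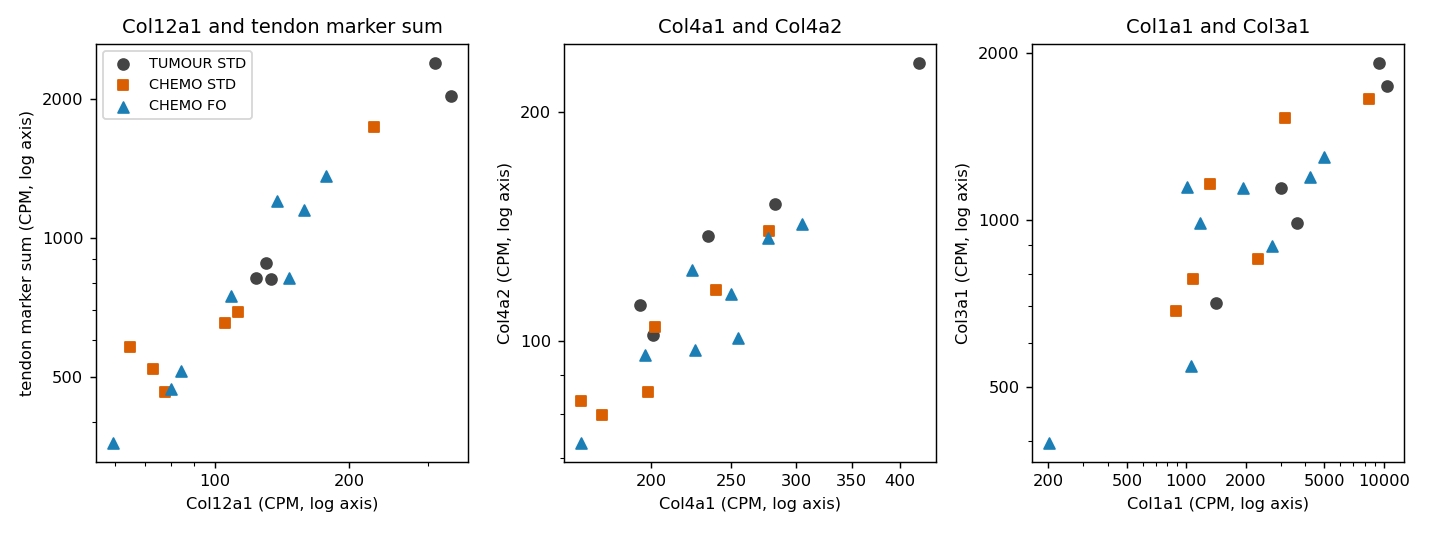
Col12a1 against the sum of 13 tendon markers, Col4a1 against Col4a2, and Col1a1 against Col3a1, in CPM on log axes, 1 point per sample with the group given by colour and shape. Points rise together in each panel, with r of 0.96, 0.95 and 0.86 after subtraction of group means.

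Ratios of counts within a sample do not depend on the scaling between libraries. The ratio of Col4a2 to Col4a1 was 0.575, 0.586, 0.550, 0.506 and 0.535 in TUMOUR STD replicates 8 to 12, 0.432 to 0.516 in CHEMO STD (median 0.494) and 0.396 to 0.552 in CHEMO FO (median 0.464). TUMOUR STD replicates 8, 9, 10 and 12 were above every CHEMO STD sample, replicate 11 was within their range, and CHEMO FO replicate 20 lay within TUMOUR STD. The ratios were chosen after the values were seen and were not tested. The ratio of Col6a2 to Col6a1 had means of 0.898 ± 0.0267 in TUMOUR STD, 0.886 ± 0.128 in CHEMO STD and 0.909 ± 0.0656 in CHEMO FO (SD, n = 5, 6 and 8), within their spread. The ratio of Col1a1 to Col3a1, the 2 main fibrillar chains, was 1.99, 3.68, 4.94, 2.63 and 5.98 in TUMOUR STD, 1.13 to 5.11 in CHEMO STD and 0.507 to 3.84 in CHEMO FO. Both chemotherapy groups overlapped TUMOUR STD. Absolute ratios also reflect transcript length, and only their differences between samples are read here.

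Of 2 collagens of skin, Col17a1 was high only in the samples with keratinocyte transcripts, and Col7a1 followed these transcripts less closely. Col17a1, the transmembrane collagen of epidermal hemidesmosomes, was at 61.6 CPM in TUMOUR STD replicate 10 and 10.1 in CHEMO FO replicate 16, and at 0 to 1.26 in the other 17 samples, and it did not pass the filter. The same 2 samples held Krt14 at 38.7 and 10.8 CPM and Krt5 at 35.1 and 11.5, keratins of the basal epidermis, while in the others Krt14 was at 0 and Krt5 at most 0.710. Col7a1 was highest in CHEMO FO replicate 16 (11.5 CPM), CHEMO FO replicate 18 (9.18) and TUMOUR STD replicate 10 (8.84). With the keratinocyte marker sum it gave Pearson's r 0.56 and Spearman's rho 0.55 (permutation p = 0.00164 and 0.00404, adjusted 0.00258 and 0.00635), and r was 0.33 without the 2 keratinocyte-bearing samples. The part of skin or hair follicle cells in the Col7a1 values was not tested. Against TUMOUR STD, Col7a1 in CHEMO STD had a fitted change of -0.73 (SE 0.39) and in CHEMO FO of 0.07 (SE 0.35), neither called.

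**Figure D5:**
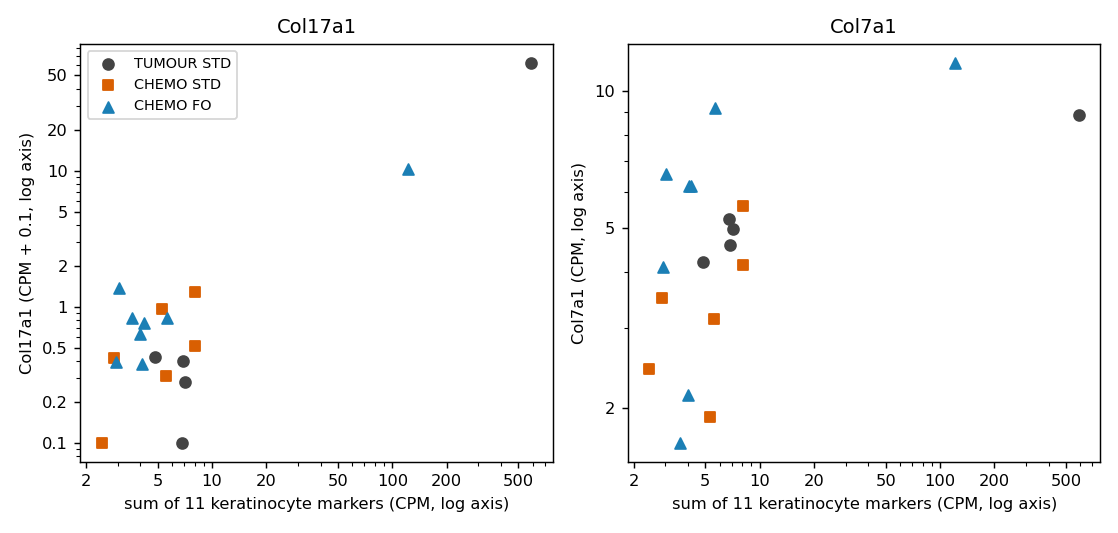
Col17a1 (CPM + 0.1, left) and Col7a1 (CPM, right) against the summed level of 11 keratinocyte markers, all on log axes, 1 point per sample. For Col17a1 the 2 samples with a high marker sum stand apart at 61.6 and 10.1 CPM, while Col7a1 covers 1.68 to 9.18 CPM among samples with a low marker sum.

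Col28a1, a collagen described in peripheral nerve, was at most 2.36 CPM. Its relation to the sum of 11 Schwann cell markers, Pearson's r 0.42 and Spearman's rho 0.48 (permutation p = 0.0525 and 0.0298, adjusted 0.0642 and 0.0364), passed 0.05 after adjustment for rho and not for r. Schwann marker sums were 498, 477 and 325 CPM in TUMOUR STD replicate 10, CHEMO STD 1+2 and CHEMO STD replicate 7 and 88.0 to 167 elsewhere. Of the 10 collagen genes below the filter, Col23a1, a transmembrane collagen, had 0 counts in all 20 libraries, which allows up to 0.0235 CPM over the 127443474 counts pooled (3 counts, counting error only). Col6a4 had 5 counts in total, Col10a1, a chain of growth-plate cartilage, 9, and Col9a2, 1 of the 3 cartilage type IX chains, 15. Col9a3, Col25a1, Col26a1, Col4a6 and Col9a1 had 40 to 72 counts in all libraries together. These 10 were left out of the comparisons and, Col23a1 aside, entered the fit without the filter on low counts.

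The genes that process, bind or sense collagen were counted in 7 lists, 88 genes in all, of which 77 passed the filter. Against TUMOUR STD, 7 were called lower and 0 higher in CHEMO STD, and in CHEMO FO versus TUMOUR STD 14 were called lower and 0 higher. In CHEMO FO versus CHEMO STD 2 were called higher and 0 lower. Of all genes tested 1.45%, 2.51% and 0.615% were called in those directions. Of the 77, 0 passed an adjusted p of 0.05 in edgeR or in DESeq2 on all samples (smallest in edgeR 0.719, 0.486 and 0.974 in the same order), and 13, 25 and 2 had an unadjusted p below 0.05 in edgeR, 12, 24 and 1 in DESeq2. The counts turned on single samples. In CHEMO STD versus TUMOUR STD 1 was called lower without TUMOUR STD replicate 10, 2 without TUMOUR STD replicate 12 and 22 without the summed CHEMO STD sample. Of all genes 1.37%, 1.95% and 5.20% were called in either direction in these fits, beside 2.38% with all samples. In CHEMO FO versus TUMOUR STD the count was 5 without TUMOUR STD replicate 10, 4 without replicate 12, 6 without CHEMO FO replicate 15 and 21 without TUMOUR STD replicate 8, and 4 with limma voom and quality weights. Here 2.44%, 3.08%, 3.10%, 4.77% and 2.56% of all genes were called in either direction, beside 3.60% in the main fit. The proteoglycans and glycoproteins of fibrils held most of the first set, with 4 of 13 tested genes called lower in CHEMO STD and 5 of 13 in CHEMO FO against TUMOUR STD. Tenascin C (Tnc) had a fitted change of -1.23 (SE 0.47) and -1.26 (SE 0.44), fibromodulin (Fmod) of -0.88 (SE 0.40) and -0.94 (SE 0.37), and fibronectin (Fn1) of -0.72 (SE 0.32) and -0.65 (SE 0.30). Keratocan (Kera), a corneal and tendon proteoglycan, was called in both, at -0.96 (SE 0.45) and -1.14 (SE 0.42). Sparc, a collagen-binding protein and the most abundant gene of this list, was called in CHEMO FO (-0.82, SE 0.35) and stood at -0.62 (SE 0.37) in CHEMO STD, not called. Tnc, Fmod and Kera are also in the tendon marker list. Decorin (Dcn), the next most abundant, had a fitted change of -0.22 (SE 0.23) and -0.18 (SE 0.21), not called.
Among 6 crosslinking genes, lysyl oxidase-like Loxl4 was called lower in both (-0.90, SE 0.37, and -0.96, SE 0.35) and Loxl2 in CHEMO FO (-0.77, SE 0.34). Lox itself had a fitted change of -0.73 (SE 0.46) and -0.49 (SE 0.43), and Tgm2 of -0.07 (SE 0.17) and 0.06 (SE 0.16), without a call. Of 17 genes for chain modification and folding 0 were called in CHEMO STD and 2 in CHEMO FO, the prolyl 3-hydroxylases P3h2 (-1.05, SE 0.34) and P3h3 (-0.64, SE 0.21). The abundant P4hb, a subunit of prolyl 4-hydroxylase, had a fitted change of -0.14 (SE 0.14) and 0.03 (SE 0.14), and Tmem38b of 0.23 (SE 0.23) and 0.33 (SE 0.22). Of 10 genes for secretion and propeptide removal, Pcolce, an enhancer of procollagen C-proteinase, was called lower in CHEMO FO (-0.64, SE 0.27), and Sec23a had a fitted change of -0.07 (SE 0.10). The basement membrane partners had negative values in 11 of 11 in both comparisons with TUMOUR STD. Laminin alpha 5 (Lama5) was called lower in CHEMO STD (-0.62, SE 0.16), and peroxidasin (Pxdn), which crosslinks type IV collagen, and Gpx7 in CHEMO FO (-0.64, SE 0.22, and -0.71, SE 0.31). The laminin chains Lamc1 and Lama2 had a fitted change of -0.19 (SE 0.17) and -0.35 (SE 0.17) there, not called. Of 8 collagen receptors, integrin alpha 2 (Itga2) was called lower in CHEMO FO (-1.19, SE 0.44), while Itgb1 had a fitted change of 0.07 (SE 0.15) and Ddr2 of -0.58 (SE 0.23).
The last list held 12 ligands and induced genes of the TGF-beta pathway, a main inducer of fibrillar collagen transcription. In it Ccn1 was called lower in CHEMO STD against TUMOUR STD (-0.81, SE 0.25, edgeR adjusted p = 0.719) and higher in CHEMO FO against CHEMO STD (0.93, SE 0.23, edgeR adjusted p = 0.974). Both comparisons use the same CHEMO STD samples with opposite sign, so the 2 calls are not independent. Ccn1 held 39.6, 35.9, 33.3, 32.0 and 38.1 CPM in TUMOUR STD, 10.7 to 31.5 (median 21.0) in CHEMO STD and 18.4 to 55.4 (median 36.5) in CHEMO FO. Ltbp3 was called lower in CHEMO FO against TUMOUR STD (-0.63, SE 0.20), and the abundant Tgfbi and Ltbp1 had fitted changes there of -0.41 (SE 0.22) and -0.26 (SE 0.17). The lists were chosen with results of these data known, and their counts are a description.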

How the data were processed

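Total RNA of gastrocnemius was rRNA-depleted and made into stranded libraries. Per the labels and the study's methods, the authors called bases with CASAVA 1.9, trimmed with Trim Galore 0.4.1, checked reads with FastQC 0.11.4, aligned them with TopHat2 2.0.10 and Bowtie2 to Rnor 6 and summarised genes in Partek Flow. The deposited values are raw counts per gene. How strand and reads on several genes were handled is not given in the sources used here. Overlapping genes are therefore less certain. A total of 388 unnamed rows (0.102% to 0.272% of counts) were left out, and 2 values in rounded exponent form were used as printed.

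The groups came from the labels. In R 4.3.3, edgeR 4.0.16 (default filter with minimum count 10 and minimum total 15, TMM, quasi-likelihood test) fitted 19 samples in 3 groups over 11716 genes, with CHEMO STD replicates 1 and 2 summed. Each SE of an edgeR change was derived from the test, as the absolute log2 change divided by the square root of the quasi-likelihood F statistic. Means and SDs are of CPM. Exact permutation tests used log2 CPM (prior count 2). Precision rests on 3020821 to 10857477 counts per library. Alternatives were other size factors (RLE, upper quartile, none), other filters, DESeq2 1.42.0, limma 3.58.1 (voom with quality weights), replicates 1 and 2 separate or singly, 2-group fits, other thresholds and each sample left out. The methods of the study name DESeq2. Leaving out samples together and all alternatives for the list counts were chosen after seeing the data. The fit was tested on simulated data. Figures used matplotlib 3.10.9.

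The genes named were those called in any comparison, the 3 with the smallest p in each, the 3 most abundant per class, the chains of the common heterotrimers, the genes of the relations and, per list, those called and the 2 most abundant. Outside this rule, Col4a3, Col5a3, Col15a1, Col18a1, Col24a1 and genes below the filter were named as well. The members, classes and lists were chosen with earlier results of these data known. Promoter sequences are from RefSeq (GRCr8); 33 of 42 collagen symbols had a window. The relation of Col1a1 with Col1a2 was not computed. The result of 1 called list gene is not reported here. List genes not used here were Crtap, Mia3, Pcolce2, Podn, Tnxb, Hspg2, Myh1, Myh2, Trp63 and Pecam1.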

Additional observations from a re-analysis of the deposited data

Results flagged for a closer look

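This step covered 21 collagen genes, those called in any comparison, with 1 of the 3 smallest p in one, or among the 3 most abundant of their class. Each was examined in each of the 3 groups, 63 sets of 5, 6 or 8 log2 CPM values, for a highest or lowest sample that stood apart from the others by Dixon's criterion at 95%, which by chance picks out about 1 set in 20. It picked out 5 values, in 4 samples. Col14a1 stood at 135 CPM in CHEMO STD sample 1+2, above the nearest of the other samples of that group at 93.6 CPM. Col16a1 stood at 59.8 CPM in CHEMO STD sample 1+2, above the nearest of the other samples of that group at 28.2 CPM. Col27a1 stood at 0.636 CPM in CHEMO STD replicate 5, below the nearest of the other samples of that group at 1.79 CPM. Col6a6 stood at 4.18 CPM in CHEMO FO replicate 18, below the nearest of the other samples of that group at 22.3 CPM. Col7a1 stood at 8.84 CPM in TUMOUR STD replicate 10, above the nearest of the other samples of that group at 5.21 CPM.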

How the results depend on the processing

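Numbers of collagen genes called depended on the samples. On leaving out 1 sample at a time they ran from 1 to 14 in CHEMO STD versus TUMOUR STD (4 with all samples), from 0 to 1 in CHEMO FO versus CHEMO STD (1) and from 2 to 12 in CHEMO FO versus TUMOUR STD (7). The share of all genes called in either direction ran from 1.37% to 5.20%, 1.30% to 2.29% and 2.36% to 4.96%. With all samples it was 2.38%, 1.66% and 3.60%. In the same order, with TUMOUR STD replicate 10 and CHEMO FO replicate 16 left out, a choice made after seeing the data, 1, 0 and 4 were called, and with CHEMO FO replicate 18 left out too, 2, 0 and 4. Of all genes 1.44%, 1.82% and 3.16% were called in the first of these settings and 1.77%, 1.57% and 2.02% in the second. Without the filter on low counts 9, 2 and 9 of 41 were called, among them Col10a1, Col17a1 and Col6a4, which did not pass it. That fit called 5.01%, 3.73% and 5.76% of all genes. Col10a1 and Col6a4 had 9 and 5 counts in total. For Col17a1 in CHEMO STD versus TUMOUR STD, exact permutation gave p = 0.786 (two-sided). With limma voom and quality weights it was 6, 0 and 4, with only the 2 groups in the fit 7, 1 and 7, at a 2-fold threshold 0, 0 and 4, and with no fold threshold 6, 1 and 13. Of all genes limma voom called 2.67%, 1.97% and 2.56% and the 2-group fits 2.40%, 1.38% and 3.19%. With no fold threshold 762, 528 and 1059 of 11716 genes were called, and the share at 2-fold is not given here. The cause of these shifts was not tested. Some settings had fewer samples or other thresholds, whereas limma voom and the fit without the filter used all 19 samples and the same thresholds for a call. The other size factors, DESeq2, the stricter filter and the treatments of CHEMO STD replicates 1 and 2 left each count within 1.5 times. Directions turned as follows, the cause not being tested. In CHEMO STD versus TUMOUR STD, Col14a1 (-0.13) was -0.24 without CHEMO STD 1+2, ran from -0.21 to 0.061 with any other sample left out, and was 0.062 with 2 samples left out, 0.064 with 3 samples left out. In CHEMO FO versus CHEMO STD, Col11a1 (-0.29) was 0.17 without CHEMO STD 1+2 and ran from -0.45 to -0.14 with any other sample left out. Col11a2 (-0.38) was 0.22 without CHEMO STD 1+2 and ran from -0.62 to -0.22 with any other sample left out. Col12a1 (0.099) was 0.45 without CHEMO STD 1+2, ran from -0.012 to 0.20 with any other sample left out, and was -0.096 with CHEMO STD replicates 1 and 2 kept apart, -0.0077 with 2 samples left out. Col13a1 (-0.090) was 0.33 without CHEMO STD 1+2, ran from -0.22 to 0.024 with any other sample left out, and was 0.013 with CHEMO STD replicate 2 dropped, 0.051 with the difference of mean log2 CPM. Col16a1 (-0.14) was 0.19 without CHEMO STD 1+2, ran from -0.34 to -0.054 with any other sample left out, and was 0.063 with limma voom. Col1a1 (-0.41) was 0.30 without CHEMO STD 1+2, ran from -0.70 to -0.23 with any other sample left out, and was 0.18 with limma voom. Col22a1 (0.064) was 0.018 without CHEMO STD 1+2, ran from -0.031 to 0.17 with any other sample left out, and was -0.030 with 2 samples left out, -0.0040 with the difference of mean log2 CPM. Col2a1 (-0.39) was 0.13 without CHEMO STD 1+2 and ran from -0.69 to -0.18 with any other sample left out. Col3a1 (-0.22) was -0.076 without CHEMO STD 1+2, ran from -0.33 to -0.11 with any other sample left out, and was 0.015 with limma voom. Col5a1 (-0.12) was 0.046 without CHEMO STD 1+2, ran from -0.24 to 0.011 with any other sample left out, and was 0.13 with limma voom. Col5a2 (-0.10) was 0.030 without CHEMO STD 1+2, ran from -0.16 to -0.025 with any other sample left out, and was 0.036 with limma voom. Col6a1 (-0.022) was 0.16 without CHEMO STD 1+2, ran from -0.14 to 0.063 with any other sample left out, and was 0.15 with limma voom. Col6a2 (0.0046) was 0.21 without CHEMO STD 1+2, ran from -0.11 to 0.077 with any other sample left out, and was -0.12 with CHEMO STD replicates 1 and 2 kept apart, -0.014 with upper-quartile factors, -0.036 with library totals, -0.0018 with 2 groups fitted, -0.11 with 2 samples left out, -0.033 with 3 samples left out. In CHEMO FO versus TUMOUR STD, Col4a1 (-0.17) was -0.16 without CHEMO STD 1+2, ran from -0.26 to 0.055 with any other sample left out, and was 0.017 with limma voom, 0.00065 with 2 samples left out. Col7a1 (0.072) was 0.083 without CHEMO STD 1+2, ran from -0.090 to 0.31 with any other sample left out, and was -0.24 with limma voom, -0.079 with 3 samples left out, -0.078 with the difference of mean log2 CPM. Class sums moved by less than 1 SD in every setting. No paired analysis was possible because the groups share no replicate numbers. Col13a1, Col27a1 and Col7a1, at under 12 CPM, rest on few counts, and intervals and floors cover counting error only.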
